A study of Mus musculus with 10 samples.

Results

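The genes described here are those that the deposited table assigns to the PPAR signaling pathway of KEGG, other than *Hmgcs1*, which belongs to cholesterol synthesis. The table lists 56691 mouse genes, of which 111 carry this pathway, and 110 remained without *Hmgcs1*. RNA was sequenced from the colon of male C57/BL6 mice, 8 weeks old when obtained, that had drunk 3% dextran sulfate sodium (DSS), a chemical that injures the colon epithelium and causes colitis, for 7 days. The DSS group of 5 mice had this treatment alone, and the ceAF group of 5 mice then received 15 mL/kg of chick early amniotic fluid (ceAF) by gavage for 10 days, so that all 10 mice share the DSS injury. Whether the DSS group was gavaged with a vehicle, which stretch of colon was taken and on which day is not given in the sources used here. That each library comes from a mouse of its own rests on the labels, so p-values measure the spread between these samples. The comparison asks how colon RNA differs between mice given ceAF after DSS and mice given DSS alone. Within each group the labels number the mice from 1 to 5, as in DSS-1 and ceAF-1. The total count on genes was between 14676471 and 19901549 per mouse, with a median of 16426125 for DSS mice and 16058782 for ceAF mice.

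PPARs are nuclear receptors that bind fatty acids and their derivatives, pair with a retinoid X receptor (RXR) and switch on genes that take up, bind, burn or store fat. PPARα is known for fatty acid oxidation and ketone production in fasting liver, PPARγ for fat storage in adipocytes, and PPARγ is also abundant in the colon epithelium. Colonocytes burn short-chain fatty acids, above all butyrate, and make ketone bodies from them.

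Levels of a gene are given as CPM, the count scaled to library size, here after normalization by TMM, a trimmed mean of log ratios between libraries. Levels of different genes are compared only as FPKM, the authors' count per length of exon and per total count, averaged over the 10 mice. Of the 110 genes, 58 had enough counts to be tested and 52 did not. With edgeR's quasi-likelihood test and Benjamini-Hochberg adjustment over the 16545 genes tested, 0 of the 58 genes had an adjusted p under 0.05, where 0% of all genes tested did. At an unadjusted p under 0.05 there was 1 of the 58, *Acsl4*, lower in the ceAF group, against 1146 of all genes tested, or 6.93%. DESeq2 also called 0 of the 58 at an adjusted p under 0.05 and 30 of all genes tested, or 0.181%, and at an unadjusted p under 0.05 it gave 3 of the 58 and 1269 of all genes tested, or 7.67%. In 0 of the 58 genes did the CPM of the groups not overlap, against 1.24% of all genes tested. The edgeR log2 fold change of ceAF against DSS was above 0 in 26 genes (44.8%, against 51.4% of all genes tested) and below 0 in 32, with a median of -0.02, and over all genes tested its median was 0.0076. Of the PPAR genes 1.72% were thus past an unadjusted p under 0.05 with edgeR, 0 of them higher with ceAF, where 3.26% of all genes tested were higher and 3.67% lower. A p above the threshold does not show that a gene did not differ, and the 95% intervals below give the range of differences that the data allow.

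**Figure D1:**
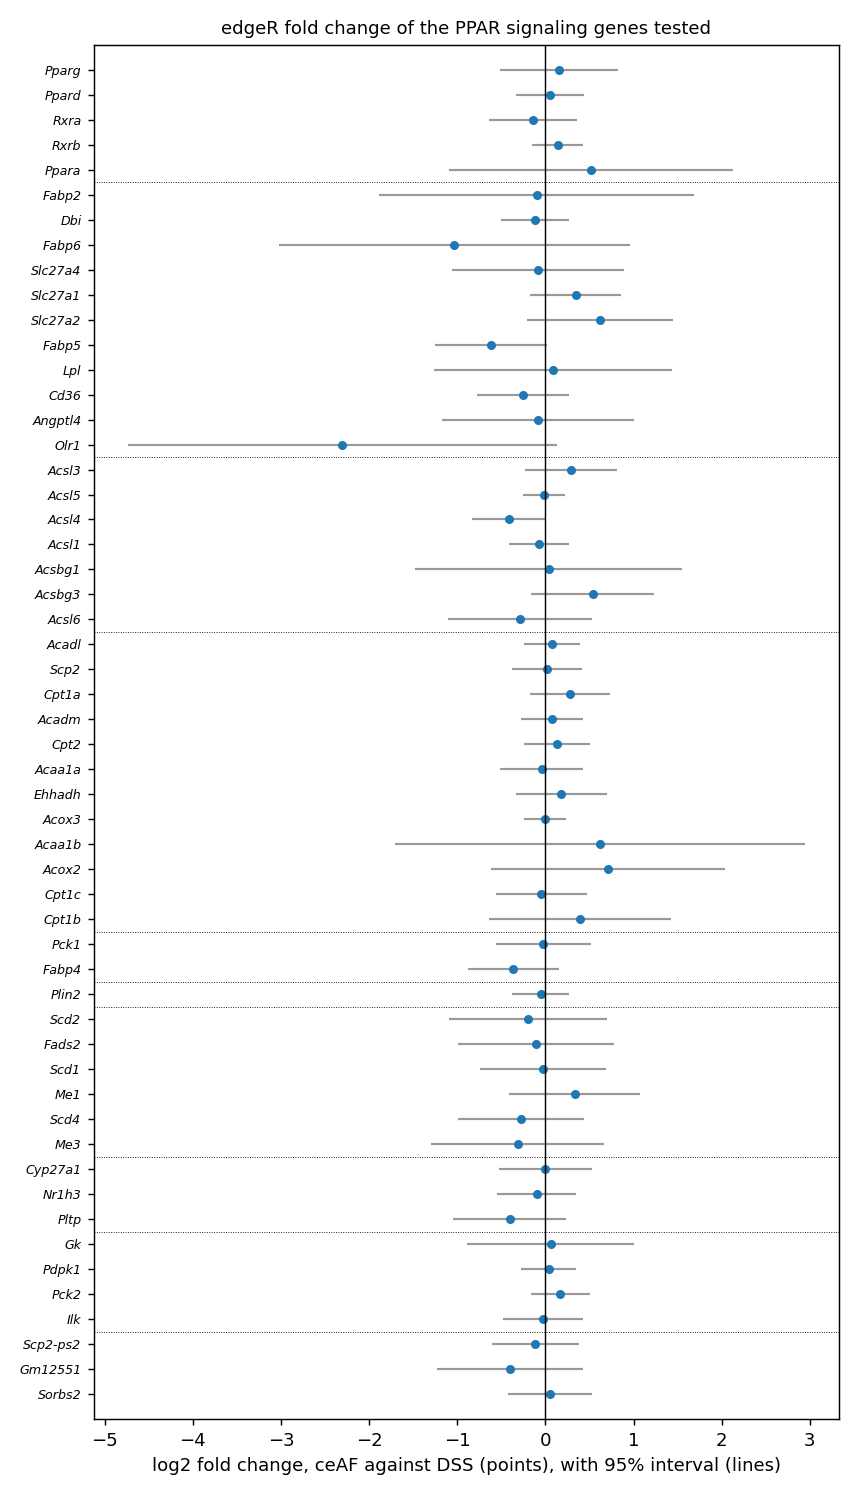
Points give the edgeR log2 fold change of ceAF against DSS for 54 of the 58 PPAR signaling genes tested, ordered by role and then by FPKM, and lines give its 95% interval. Of these intervals, that of *Acsl4* alone lies below 0 (-0.83 to -0.00017), and that of *Olr1* is the widest (-4.74 to 0.13).

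The PPAR genes tested varied more between mice of a group than genes at large. The standard deviation of log2 CPM within a group had a median of 0.42 over the 58 genes and 0.33 over all genes tested. Among genes with over 3 counts in every mouse, the highest CPM was over 10 times the lowest in 6 of 56 PPAR genes (10.7%) and in 4.12% of all genes tested. Mouse ceAF-1 had the highest value in 25 of the 58 genes (43.1%), against 20.4% of all genes tested, and DSS-5 had the lowest in 14 of them (24.1%), against 14.3%. In a principal component analysis of all genes tested, ceAF-1 also stood apart, with 93.5 on the leading component, which held 30.8% of the variance, where the other mice lay between -45.5 and 16.0. Fold changes without that mouse are given below for some of the genes.

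**Figure D2:**
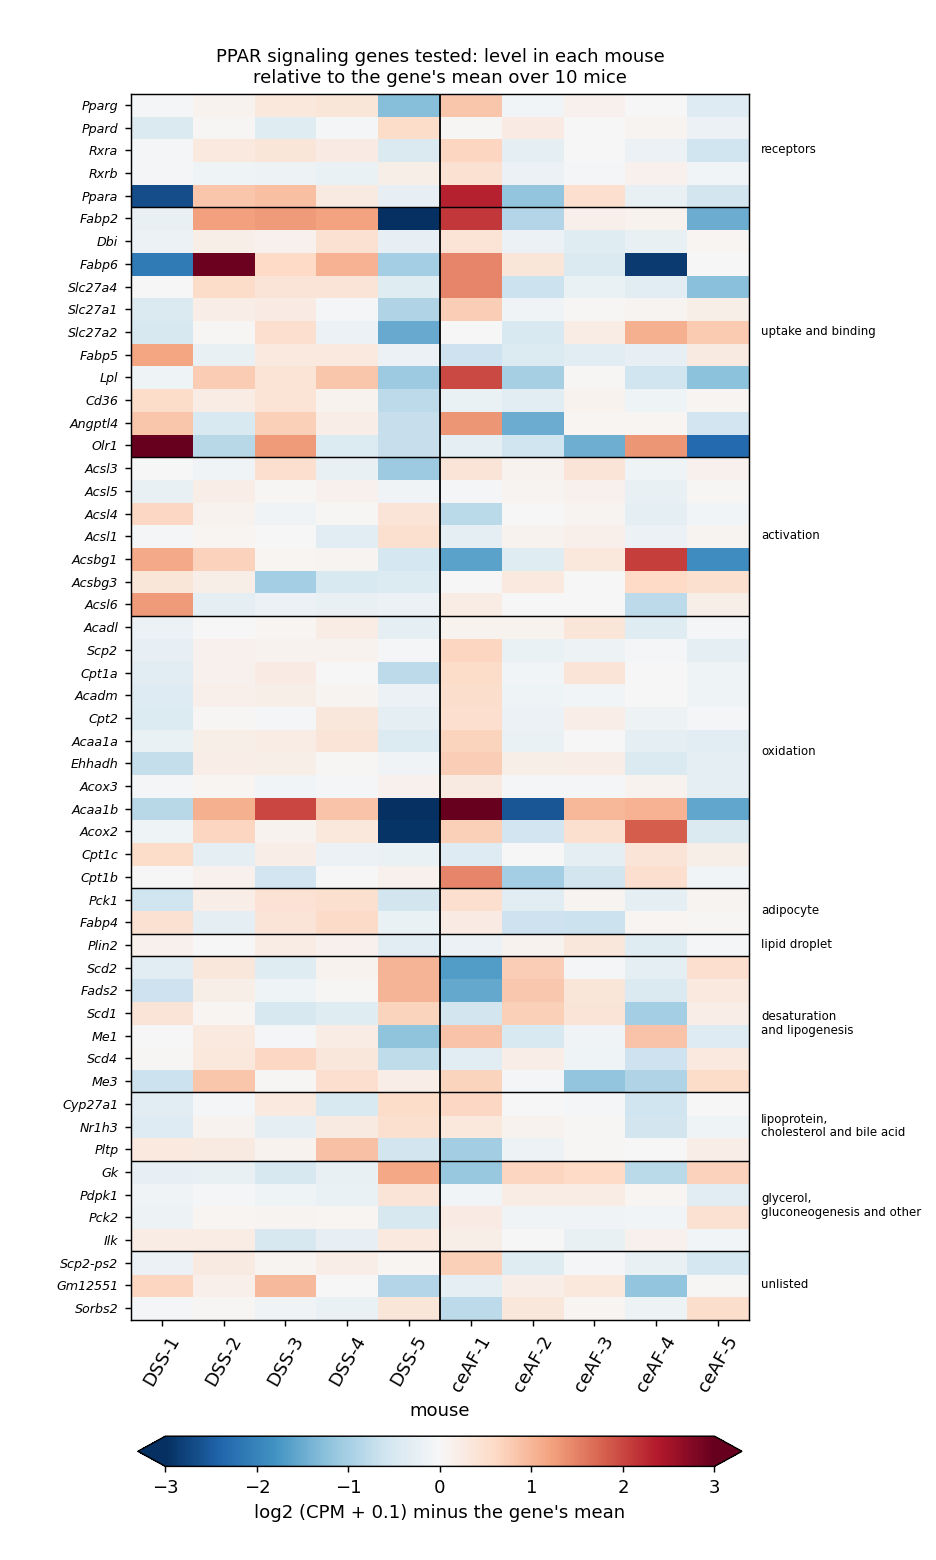
Colors give the log2 of CPM + 0.1 of 54 of the 58 PPAR signaling genes tested (lines) in each of the 10 mice (columns) minus the gene's mean, with genes ordered by role and then by FPKM and colors saturated at -3 and 3. The column of ceAF-1 is the highest in 22 of these genes and that of DSS-5 the lowest in 13, and the vertical line between the groups marks no change of color that runs through the genes.

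Genes that mark position along the gut and the surface of the colon epithelium also differed between mice. Of 13 *Hox* genes, which hold the position of a tissue along the body, 12 were tested and 0 were at 0 in every mouse, and *Hoxb13* was the most abundant by FPKM (52.4). Of the 12, 9 had a log2 fold change above 0 and 3 below (median 0.18). With the replicate number as a block, 5 were above 0 and 7 below (median -0.079). At an adjusted p under 0.05, 0 of the 12 were called with edgeR or with DESeq2. At an unadjusted p under 0.05, 1 was higher in the ceAF group with either tool, beside 3.26% of all genes with edgeR. This was *Hoxd13*, named after its values were seen, at 4.23, 8.74, 7.12, 1.47 and 10.5 CPM in DSS-1 to DSS-5 and 7.25, 121, 109, 0 and 4.95 CPM in ceAF-1 to ceAF-5, where only ceAF-2 and ceAF-3 were above the DSS mice (log2 fold change 2.91, edgeR adjusted p = 0.703). *Hoxb6* measured 1.27, 25.3, 36.6, 22.4 and 0.9603 CPM in DSS-1 to DSS-5 and 91.03, 0.846, 17.4, 2.98 and 0.8796 CPM in ceAF-1 to ceAF-5. *Hoxb13*, which is known to mark the hind end of the gut, measured 76.3, 95.2, 93.03, 112 and 206 CPM in DSS-1 to DSS-5 and 6.18, 215, 149, 10.2 and 185 CPM in ceAF-1 to ceAF-5. *Hoxb6* was thus high in ceAF-1, DSS-2, DSS-3, DSS-4 and ceAF-3 and low in DSS-1, DSS-5, ceAF-2 and ceAF-5, and *Hoxb13* was lowest in ceAF-1 and ceAF-4. ceAF-1 was the highest mouse for 4 of the 12 tested *Hox* genes and DSS-5 the lowest for 2. The summed level of the 13 *Hox* genes was 380.4, 428, 372, 473 and 451 CPM in DSS-1 to DSS-5 and 305, 668, 605, 453 and 489 CPM in ceAF-1 to ceAF-5. All 8 surface colonocyte markers were tested, 0 were at 0 in every mouse, and their sum was 10465, 15595, 17172, 17937 and 10352 CPM in DSS-1 to DSS-5 and 23351, 12307, 14250.3, 11762 and 9649 CPM in ceAF-1 to ceAF-5. Their most abundant gene, *Car1*, a carbonic anhydrase, measured 1118, 4653, 7774, 4956 and 115 CPM in DSS-1 to DSS-5 and 11922, 814, 3344, 753 and 505 CPM in ceAF-1 to ceAF-5. *Car1* was highest in ceAF-1, above every DSS mouse, and lowest in DSS-5, and the other 4 ceAF mice lay within the range of the DSS group. ceAF-1 was the highest mouse for only 3 of the 8 markers and DSS-5 the lowest for 3. *Slc26a3*, a chloride exchanger of the same list named after its values were seen, ran the other way, at 938, 849.8, 943, 1107 and 1710.2 CPM in DSS-1 to DSS-5 and 576, 2164, 1153, 979 and 1351 CPM in ceAF-1 to ceAF-5, lowest in ceAF-1. The mean over the 8 markers of log2 CPM, each less its own mean over the 10 mice, was highest in DSS-4 (0.53), with 0.22 in ceAF-1, and lowest in DSS-5 (-0.64). The part of position and of surface cells in the values of the PPAR genes was not tested, and in whole tissue fewer cells of a type and less RNA per cell cannot be told apart.

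Among the receptors, 5 of 6 genes were tested, of which 4 had a log2 fold change above 0 and 1 below, with a median of 0.14, or -0.077 without ceAF-1. *Pparg*, for PPARγ (ENSMUSG00000000440, chromosome 6, 115337912 to 115467360, plus strand, as the table gives it without a build), had the highest mean FPKM of them, 34.5, ahead of *Ppard* (18.5), *Rxra* (17.9), *Rxrb* (8.69) and *Ppara* (1.64). *Pparg* measured 95.04, 105, 122, 125 and 40.2 CPM in DSS-1 to DSS-5 and 173, 91.1, 106, 97.96 and 73.9 CPM in ceAF-1 to ceAF-5. DSS-5 was far below the other mice and ceAF-1 above them, and the remaining mice of both groups lay between 73.9 and 125 CPM. The test gave a log2 fold change of 0.15 (SE 0.30, 95% interval -0.51 to 0.82, edgeR adjusted p = 0.954), and without ceAF-1 the log2 fold change was -0.077. *Ppara*, for PPARα, was low throughout and measured 0.637, 8.195, 8.56, 5.44 and 3.78 CPM in DSS-1 to DSS-5 and 22.97, 1.95, 6.47, 3.88 and 3.08 CPM in ceAF-1 to ceAF-5. It was highest in ceAF-1 and lowest in DSS-1, 36.03-fold apart, with a log2 fold change of 0.52 (SE 0.73, 95% interval -1.09 to 2.13, edgeR adjusted p = 0.928). Without ceAF-1 the log2 fold change of *Ppara* was -0.47. *Ppard*, for the broadly expressed PPARδ, measured 101, 141, 107, 134 and 202 CPM in DSS-1 to DSS-5 and 141, 163, 139, 145 and 122 CPM in ceAF-1 to ceAF-5. Here DSS-5 was the highest mouse, the reverse of *Pparg*, and the log2 fold change was 0.052 (edgeR adjusted p = 0.977), or 0.25 without DSS-5. *Rxra*, the main RXR partner by FPKM, measured 108, 135, 143, 130.1 and 81.8 CPM in DSS-1 to DSS-5 and 172, 89.9, 109.95, 97.6 and 72.95 CPM in ceAF-1 to ceAF-5, with a log2 fold change of -0.14 (SE 0.23, 95% interval -0.64 to 0.36, edgeR adjusted p = 0.94). Its highest value was again in ceAF-1, and its lowest in ceAF-5, and the log2 fold change was -0.37 without ceAF-1 and -0.028 without ceAF-5.

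Uptake and binding of fatty acids took 16 genes, of which 11 were tested, 3 with a log2 fold change above 0 and 8 below (median -0.098). With 1 mouse left out the median was between -0.62, without ceAF-1, and 0.073, without ceAF-2, and it was above 0 without DSS-2 or ceAF-5 too. The highest FPKM of the PPAR genes reported here belonged to *Fabp2*, the intestinal fatty acid binding protein, with a mean of 279. It was followed in this list by *Dbi* (118), an acyl-CoA binding protein, and *Fabp6* (21.8), which binds bile acids in the ileum. *Fabp2* measured 154, 419, 434, 412 and 15.8 CPM in DSS-1 to DSS-5 and 786, 97.2, 201, 192 and 64.4 CPM in ceAF-1 to ceAF-5. Both groups spanned the range from low to high: ceAF-1 was 49.6-fold above DSS-5, and DSS-2, DSS-3 and DSS-4 lay between them at nearly the same level. The fold change between groups was correspondingly imprecise, with a log2 fold change of -0.098 (SE 0.81, 95% interval -1.89 to 1.69, edgeR adjusted p = 0.99). Without ceAF-1 the log2 fold change of *Fabp2* was -1.05. *Dbi* varied less, at 146, 186, 179.7, 226 and 139 CPM in DSS-1 to DSS-5 and 218, 147, 129, 141 and 171 CPM in ceAF-1 to ceAF-5, with a log2 fold change of -0.12 (SE 0.17, 95% interval -0.50 to 0.26, edgeR adjusted p = 0.931). *Fabp6* measured 1.27, 45.8, 8.98, 12.1 and 2.82 CPM in DSS-1 to DSS-5 and 16.4, 7.61, 4.33, 0.716 and 5.94 CPM in ceAF-1 to ceAF-5. DSS-2 was the highest mouse, and without it the log2 fold change, -1.03 over all mice, was 0.16.

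The order of the 10 mice by *Fabp2* was ceAF-1, DSS-3, DSS-2, DSS-4, ceAF-3, ceAF-4, DSS-1, ceAF-2, ceAF-5 and DSS-5. *Hoxb8* measured 0.811, 13.6, 19.8, 11.3 and 0.6002 CPM in DSS-1 to DSS-5 and 37.9, 0.781, 7.62, 1.43 and 0.6597 CPM in ceAF-1 to ceAF-5. This is the same order in all 10 places, and *Hoxb6* and *Hoxb7* had it in the leading 7. Some of these places are uncertain. *Hoxb8* lay between 0.6002 and 0.811 CPM in DSS-1, ceAF-2, ceAF-5 and DSS-5, and *Fabp2* was nearly level in DSS-2, DSS-3 and DSS-4. *Car1*, *Lpl*, *Pparg* and *Ppara* had the same 5 mice on top, and *Slc27a4*, *Cpt1a* and *Acaa1b* had 4 of these 5. *Hoxb13*, the most abundant *Hox* gene by FPKM, went another way. It shared 0 leading places and 2 of the top 5 mice with *Fabp2*, and ceAF-1 was its lowest mouse. How many of all genes tested have such an order was not counted. These genes were set beside *Fabp2* after their values were seen, and the orders are a description. The part of position along the colon in *Fabp2* was not tested.

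*Lpl*, the lipoprotein lipase that releases fatty acids from triglycerides in the blood, measured 16.6, 30.7, 23.9, 32.4 and 8.403 CPM in DSS-1 to DSS-5 and 71.96, 9.05, 18.7, 11.99 and 7.697 CPM in ceAF-1 to ceAF-5. *Slc27a4*, a fatty acid transport protein of enterocytes, measured 73.5, 109.6, 96.3, 96.4 and 57.8 CPM in DSS-1 to DSS-5 and 206, 47.3, 64.5, 59.96 and 30.95 CPM in ceAF-1 to ceAF-5. For both, the highest and the lowest of the 10 mice, ceAF-1 and ceAF-5, were in the ceAF group. Their log2 fold changes were 0.086 and -0.086 over all mice and -0.92 and -0.78 without ceAF-1, and without that mouse both were among the 3 PPAR genes lower in the ceAF group at an unadjusted edgeR p under 0.05, beside the pseudogene *Scp2-ps2*. That is 3 of 59 PPAR genes tested in that fit (5.08%), where 1872 of all 16784 genes (11.2%) were at an unadjusted p under 0.05 in either direction. *Angptl4*, a PPAR target that blocks lipoprotein lipase (ENSMUSG00000002289, chromosome 17, 33992724 to 34000804, minus strand), was low, at 5.91, 2.35, 5.39, 3.78 and 1.98 CPM in DSS-1 to DSS-5 and 8.32, 1.11, 3.40003, 3.401 and 2.14 CPM in ceAF-1 to ceAF-5. The groups overlapped, with the highest value in ceAF-1 and the lowest in ceAF-2. The test gave a log2 fold change of -0.086 (SE 0.50, 95% interval -1.18 to 1.00, edgeR adjusted p = 0.984), and without ceAF-1 the log2 fold change was -0.62. *Slc27a1* and *Slc27a2*, further transport proteins, ranged over 11.4 to 36.2 CPM and 2.94 to 18.3 CPM, both lowest in DSS-5, and *Cd36*, a fatty acid receptor, over 3.601 to 9.16 CPM, also lowest in DSS-5. The log2 fold change of *Cd36* was -0.25 (edgeR adjusted p = 0.871). Without DSS-5 it was -0.40, and *Cd36* was then among 3 PPAR genes lower in the ceAF group at an unadjusted edgeR p under 0.05, where 9.59% of all genes were at such a p in either direction.

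**Figure D3:**
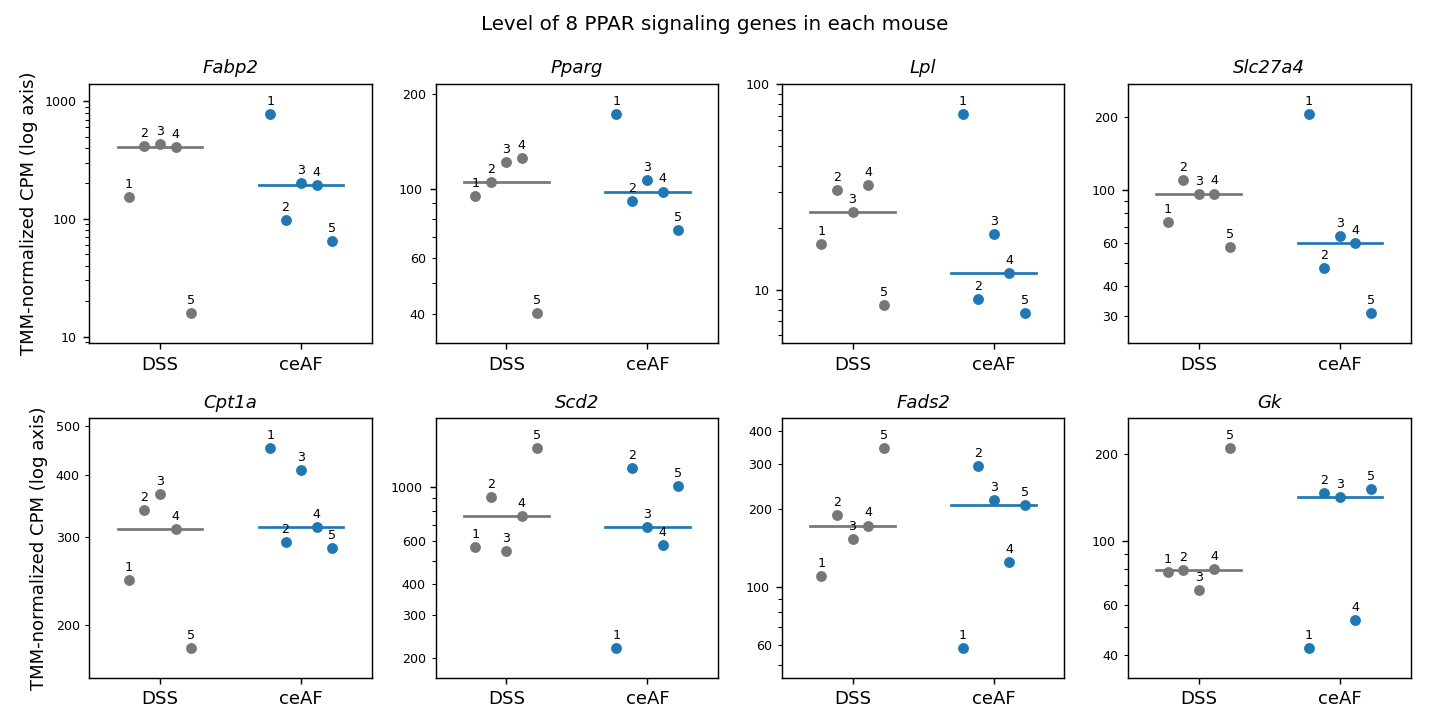
Points give the TMM-normalized CPM (log axis) of 8 PPAR signaling genes in each mouse, numbered within its group, and horizontal lines give the group's median. *Fabp2*, *Pparg*, *Lpl*, *Slc27a4* and *Cpt1a* are highest in ceAF-1, while *Scd2*, *Fads2* and *Gk* are lowest there and highest in DSS-5.

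*Olr1* and *Fabp5* were high in DSS-1 instead. *Olr1*, a scavenger receptor for oxidized lipoproteins, measured 22.1, 0.6496, 3.11, 0.897 and 0.7203 CPM in DSS-1 to DSS-5 and 0.992, 0.781, 0.384, 3.22 and 0.165 CPM in ceAF-1 to ceAF-5. It had the largest log2 fold change of the list, -2.31 (SE 1.10, 95% interval -4.74 to 0.13, edgeR adjusted p = 0.729), and without DSS-1 it was -0.27. *Fabp5*, a fatty acid binding protein of epidermis and of immune cells, measured 16.3, 6.096, 8.68, 8.65 and 6.24 CPM in DSS-1 to DSS-5 and 4.58, 5.27, 5.59, 5.97 and 8.52 CPM in ceAF-1 to ceAF-5, with a log2 fold change of -0.62 (SE 0.29, 95% interval -1.25 to 0.019, edgeR adjusted p = 0.724). DSS-1 was the highest mouse for both, and the groups overlapped. Of 8 neutrophil markers, 7 were tested and 0 were at 0 in every mouse, *Ly6g* was the most abundant by FPKM (198), and their sum was 1944, 125, 311, 204 and 552 CPM in DSS-1 to DSS-5 and 21.4, 251.8, 188, 133 and 214 CPM in ceAF-1 to ceAF-5. *S100a9*, among these markers, measured 697 CPM in DSS-1 and at most 84.6 CPM in the others. With edgeR, 6 of these 7 markers were lower in the ceAF group at an unadjusted p under 0.05 and 0 at an adjusted p, where DESeq2 gave 2 and 1, beside 3.67% of all genes lower at an unadjusted edgeR p. The median log2 fold change of the 7 neutrophil markers was -3.94, and -1.07 without DSS-1. DSS-1 also had the highest sum of B cell, fibroblast, endothelial and macrophage markers. The part of neutrophils or of these other cells in *Olr1* and *Fabp5* was not tested.

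Fatty acids enter metabolism once acyl-CoA synthetases have joined them to coenzyme A. Of 8 such genes 7 were tested, 3 with a log2 fold change above 0 and 4 below (median -0.016, and 0.19 without DSS-1). *Acsl3* and *Acsl5* had the highest mean FPKM, 49.7 and 26.6, and *Acsl4*, which prefers polyunsaturated fatty acids such as arachidonic acid, had 5.76. *Acsl4* (ENSMUSG00000031278, chromosome X, 141100989 to 141173531, minus strand) measured 46.6, 32.5, 28.02, 30.9 and 39.01 CPM in DSS-1 to DSS-5 and 17.02, 30.5, 32.03, 24.8 and 28.3 CPM in ceAF-1 to ceAF-5. DSS-1 and DSS-5 were the highest mice and ceAF-1 the lowest, and the other 7 mice of both groups shared a range. The log2 fold change was -0.41 (SE 0.19, 95% interval -0.83 to -0.00017, edgeR adjusted p = 0.717). Its unadjusted edgeR p was 0.0499, and an exact permutation test of log2 CPM, with both directions counted, gave p = 0.0635, where the smallest p that 5 against 5 mice allow is 0.00794. When 1 mouse was left out, the unadjusted p of *Acsl4* was under 0.05 only without DSS-3, DSS-4 or ceAF-3, and the log2 fold change was between -0.48 and -0.29. *Acsl3* measured 212, 194, 294, 180.3 and 98.2 CPM in DSS-1 to DSS-5 and 275, 226, 271, 193 and 229.6 CPM in ceAF-1 to ceAF-5, with DSS-5 the lowest mouse and a log2 fold change of 0.29 (SE 0.24, 95% interval -0.23 to 0.81, edgeR adjusted p = 0.853). *Acsl5* was the steadiest of the list, at 111 to 149 CPM, with a log2 fold change of -0.016 (SE 0.11, 95% interval -0.25 to 0.22, edgeR adjusted p = 0.987). *Acsbg3*, with the largest positive log2 fold change of the list, 0.53 (edgeR adjusted p = 0.759), was low, at 0.359 to 1.31 CPM.

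Fatty acid oxidation was the longest list, with 21 genes, 13 tested, 10 with a log2 fold change above 0 and 3 below, and a median of 0.13, or -0.023 without ceAF-1. Among the most abundant by mean FPKM were *Acadl* (139), which begins the mitochondrial breakdown of long fatty acids, and *Scp2* (60.4), a peroxisomal thiolase and sterol carrier. *Cpt1a* (41.4), the carnitine transferase that controls entry of fatty acids into mitochondria (ENSMUSG00000024900, chromosome 19, 3372334 to 3435733, plus strand), measured 245, 339.9, 365, 311 and 179.7 CPM in DSS-1 to DSS-5 and 452, 292, 408, 314 and 285 CPM in ceAF-1 to ceAF-5. DSS-5 and DSS-1 were the lowest mice and ceAF-1 and ceAF-3 the highest, and the values of the groups overlapped between them. The test gave a log2 fold change of 0.28 (SE 0.21, 95% interval -0.17 to 0.73, edgeR adjusted p = 0.827). Its sign was kept when any 1 mouse was left out, with log2 fold changes from 0.17 to 0.39.

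*Acadl* differed little among mice, at 246, 274, 290.5, 323 and 231 CPM in DSS-1 to DSS-5 and 299, 299.6, 355, 216 and 268 CPM in ceAF-1 to ceAF-5, with a log2 fold change of 0.075 (SE 0.14, 95% interval -0.24 to 0.39, edgeR adjusted p = 0.953). *Scp2* measured 174, 228, 225, 224 and 202 CPM in DSS-1 to DSS-5 and 326, 181, 186, 202 and 169 CPM in ceAF-1 to ceAF-5, and ceAF-1 alone stood above the other mice. Its log2 fold change was 0.018 (95% interval -0.37 to 0.41), and -0.19 without ceAF-1. The pseudogene *Scp2-ps2*, also tested, can share reads with it (8.96 to 21.5 CPM, likewise highest in ceAF-1), so both levels are uncertain. In the list as a whole, ceAF-1 had the highest value in 10 of the 13 genes tested, *Acadm*, *Cpt2*, *Acaa1a*, *Ehhadh* and *Acox3* among them, and these 5 ranged 1.48- to 2.74-fold between mice. The summed level of the 21 genes was 1414, 1863, 1859.6, 1886 and 1436 CPM in DSS-1 to DSS-5 and 2506, 1579, 1906, 1768 and 1516 CPM in ceAF-1 to ceAF-5. Without ceAF-1 the median log2 fold change of the list was -0.023.

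The peroxisomal genes *Acaa1b*, a thiolase, and *Acox2*, which shortens bile acid side chains and branched fatty acids, varied far more. *Acaa1b* measured 1.97, 7.65, 14.8, 6.597 and 0.12004 CPM in DSS-1 to DSS-5 and 31.5, 0.521, 7.29, 7.52 and 1.15 CPM in ceAF-1 to ceAF-5. It followed *Fabp2* in its 3 highest mice and in having its lowest value in DSS-5, but reads can be split between it and its close relative *Acaa1a*. The log2 fold change of *Acaa1b* was 0.62 over all mice and -0.59 without ceAF-1. *Acox2* measured 3.999, 6.796, 4.67, 5.44 and 0.4802 CPM in DSS-1 to DSS-5 and 7.25, 2.86, 6.09, 15.6 and 3.19 CPM in ceAF-1 to ceAF-5. DSS-5 was far below the other mice and ceAF-4 was the highest, and *Acox2* had the largest log2 fold change of the list, 0.71 (SE 0.60, edgeR adjusted p = 0.861). It was 0.19 without ceAF-4 and 0.96 without DSS-2.

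Genes of ketone body synthesis and use outside the pathway were looked at beside the oxidation genes. Of 6 genes 5 were tested, 4 with a log2 fold change above 0 and 1 below (median 0.032, between -0.048 and 0.14 with 1 mouse left out). With edgeR 0 had an unadjusted p under 0.05, against 6.93% of all genes, and with DESeq2 0, against 7.67%. *Slc16a1*, which carries butyrate and ketone bodies across membranes (mean FPKM 80.2), ranged over 294 to 453 CPM and *Acat1*, a mitochondrial thiolase (28.9), over 73.7 to 130.2 CPM. *Oxct1*, which begins the use of ketone bodies (60.003), measured 168, 222, 186, 221 and 301 CPM in DSS-1 to DSS-5 and 150.2, 302, 271, 139 and 260.4 CPM in ceAF-1 to ceAF-5. Its highest mice were ceAF-2 and DSS-5, and the groups overlapped.

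Genes of adipocytes were few. Of 7, only 3 were tested, among them *Pck1* and *Fabp4*, which are also known from other cells. *Pck1*, which makes phosphoenolpyruvate for glucose and glycerol synthesis (mean FPKM 23.2), measured 50.6, 88.8, 104, 108 and 52.9 CPM in DSS-1 to DSS-5 and 109, 61.7, 81.4, 63.1 and 82.1 CPM in ceAF-1 to ceAF-5, with a log2 fold change of -0.025 (SE 0.25, 95% interval -0.57 to 0.52, edgeR adjusted p = 0.991). *Fabp4*, the adipocyte fatty acid binding protein that endothelial cells and macrophages also make (4.25), measured 25.1, 14.9, 24.1, 27.3 and 16.03 CPM in DSS-1 to DSS-5 and 21.8, 11.9, 11.6, 19.3 and 18.9 CPM in ceAF-1 to ceAF-5, with a log2 fold change of -0.36 (SE 0.23, 95% interval -0.88 to 0.15, edgeR adjusted p = 0.791). The groups overlapped in both.

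The genes that define adipocytes were at or near 0. *Adipoq*, for the adipocyte hormone adiponectin, had 0, 6, 8, 4 and 2 counts in DSS-1 to DSS-5 and 22, 5, 0, 0 and 5 counts in ceAF-1 to ceAF-5. *Plin1*, which coats the fat droplet of adipocytes, had 2, 0, 3, 1 and 0 counts in DSS-1 to DSS-5 and 9, 2, 0, 0 and 7 counts in ceAF-1 to ceAF-5, and *Ucp1*, of brown fat, at most 3. Both *Adipoq* and *Plin1* were highest in ceAF-1, at 22 and 9 counts. Of 10 adipocyte markers 5 were tested and 0 were at 0 in every mouse, *Cidec* was the most abundant by FPKM (7.23), and their sum was 34.5, 53.1, 54.2, 50.5 and 36.2 CPM in DSS-1 to DSS-5 and 82.1, 43.1, 44.1, 39.8 and 51.95 CPM in ceAF-1 to ceAF-5. *Lep* and *Retn*, hormones of fat, were at 0 in 8 and 6 of the 10 mice. ceAF-1 thus had the highest sum, and the part of adipocytes in its values was not tested.

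*Plin2*, the droplet coat of most cells other than adipocytes and the only member of its list, had a mean FPKM of 37.7 and measured 145, 129, 154, 144 and 104 CPM in DSS-1 to DSS-5 and 116, 141, 165, 102 and 127 CPM in ceAF-1 to ceAF-5. It was among the least variable genes, 1.62-fold between the extreme mice, with a log2 fold change of -0.054 (SE 0.15, 95% interval -0.38 to 0.27, edgeR adjusted p = 0.972).

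In desaturation and lipogenesis, the leading genes *Scd2* and *Fads2* had their highest value in DSS-5 and their lowest in ceAF-1. Of 7 genes 6 were tested, 1 with a log2 fold change above 0 and 5 below (median -0.15, and 0.13 without DSS-5). *Scd2* and *Scd1*, which insert the double bond of oleic acid, had a mean FPKM of 145 and 9.99, and *Fads2*, which desaturates polyunsaturated fatty acids, 57.01. *Scd2*, the second highest by FPKM of the PPAR genes reported here, measured 568, 905, 547, 759 and 1435 CPM in DSS-1 to DSS-5 and 221, 1191, 686, 579 and 1004 CPM in ceAF-1 to ceAF-5. *Fads2* measured 109.99, 189.7, 154, 173 and 344 CPM in DSS-1 to DSS-5 and 58.4, 293, 217, 125 and 207 CPM in ceAF-1 to ceAF-5. In both, DSS-5 was the highest mouse and ceAF-1 the lowest, 6.505-fold apart in *Scd2* and 5.89-fold in *Fads2*, and the groups overlapped. For *Scd2* the test gave a log2 fold change of -0.20 (SE 0.41, 95% interval -1.09 to 0.70, edgeR adjusted p = 0.959), or 0.097 without DSS-5. For *Fads2* it gave a log2 fold change of -0.11 (SE 0.40, 95% interval -0.99 to 0.78, edgeR adjusted p = 0.979), or 0.21 without DSS-5. *Scd1* measured 59.2, 47.2, 32.6, 35.7 and 72.03 CPM in DSS-1 to DSS-5 and 31.2, 74.7, 59.9, 22.6 and 52.7 CPM in ceAF-1 to ceAF-5, highest in ceAF-2 and lowest in ceAF-4, and since *Scd1* to *Scd4* are close relatives, their counts are uncertain where reads match several. *Me1*, the malic enzyme that supplies NADPH for lipid synthesis, did not follow them: it measured 25.1, 31.3, 24.4, 29.6 and 10.98 CPM in DSS-1 to DSS-5 and 45.9, 18.4, 23.7, 45.7 and 19.4 CPM in ceAF-1 to ceAF-5, lowest in DSS-5, with a log2 fold change of 0.33 (SE 0.34, 95% interval -0.41 to 1.07, edgeR adjusted p = 0.89).

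Of 9 genes of lipoproteins, cholesterol and bile acids 3 were tested, all with a log2 fold change below 0 (median -0.097). *Cyp27a1*, a sterol hydroxylase (12.7 FPKM), ranged over 17.7 to 41.1 CPM, with a log2 fold change of -0.0011 (SE 0.24, 95% interval -0.53 to 0.53, edgeR adjusted p = 0.999). *Nr1h3*, for the oxysterol receptor LXRα (6.37), ranged over 10.7 to 22.1 CPM and *Pltp*, which transfers phospholipids between lipoproteins (2.399), over 2.75 to 10.8 CPM. Their log2 fold changes were -0.097 and -0.41 (edgeR adjusted p = 0.959 and 0.821). *Pltp* was lowest in ceAF-1.

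Among 9 genes of glycerol, gluconeogenesis and other roles, 5 were tested, 3 with a log2 fold change above 0 and 2 below (median 0.037). *Gk*, the glycerol kinase that returns glycerol to metabolism (13.6 FPKM), measured 78.1, 79.4, 67.3, 79.8 and 209.95 CPM in DSS-1 to DSS-5 and 42.4, 147, 142, 53.04 and 151 CPM in ceAF-1 to ceAF-5. It was highest in DSS-5 and lowest in ceAF-1, like *Scd2*, and while DSS-1 to DSS-4 lay together, the ceAF mice fell into a low pair, ceAF-1 and ceAF-4, and 3 high mice. The test gave a log2 fold change of 0.058 (SE 0.43, 95% interval -0.89 to 1.00, edgeR adjusted p = 0.988), or 0.51 when DSS-5 is left out. *Pdpk1*, a kinase of insulin signaling (7.48 FPKM), ranged over 64.5 to 105 CPM, and *Pck2*, the mitochondrial counterpart of *Pck1* (3.301), over 18.3 to 35.1 CPM. *Pck2* had the largest log2 fold change of the list, 0.17 (edgeR adjusted p = 0.869), or 0.060 without ceAF-5. *Sorbs2* and the copies *Scp2-ps2* and *Gm12551*, which belong to none of these lists, were tested too, with log2 fold changes of 0.047, -0.12 and -0.41.

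The 52 genes too low to be tested were 30 protein-coding genes and 22 others by GENCODE gene type, the latter pseudogenes with at most 4 counts in a mouse, and 18 of the 52 had 0 counts in all 10 mice. At these depths a count of 0 says only that a gene was not detected. Genes known from liver were among them. *Fabp1*, the liver fatty acid binding protein, had 0, 4, 0, 0 and 0 counts in DSS-1 to DSS-5 and 7, 0, 2, 3 and 0 counts in ceAF-1 to ceAF-5, and *Cyp7a1*, which begins bile acid synthesis, had 0 in every mouse. *Cyp4a10*, *Cyp4a14* and *Cyp4a32*, which belong to the fatty acid hydroxylases induced through PPARα in liver, had at most 2, 0 and 3 counts in a mouse. *Apoa1*, for an apolipoprotein of liver and small intestine, had 14, 108, 6, 4 and 7 counts in DSS-1 to DSS-5 and 4, 0, 33, 19 and 0 counts in ceAF-1 to ceAF-5. DSS-2 and ceAF-3 held most of them, and *Fabp6* was also highest in DSS-2. *Apoa2* had 5 to 12 counts, *Aqp7*, a glycerol channel of adipocytes, 3 to 12, *Mmp1b*, a collagenase, 0, *Apoc3* 0 to 5, *Rxrg*, the third RXR, 0 to 8, and *Fabp3*, of heart muscle, 1 to 13.

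Genes outside the pathway that share its functions were looked at in the same way. Of 22 further genes of mitochondrial and peroxisomal oxidation all 22 were tested, 13 with a log2 fold change above 0 and 9 below (median 0.07), and 0 had an unadjusted p under 0.05 with edgeR or DESeq2, against 6.93% of all genes tested with edgeR. Their most abundant genes were *Etfa*, which passes on electrons from fatty acid oxidation (74.9 FPKM, 101 to 197 CPM), *Slc25a20*, the carnitine carrier (70.4, 253 to 502 CPM), and *Acads*, for short fatty acids (60.2, 90.7 to 238 CPM). ceAF-1 had the highest value in 18 of the 22, and without it 4 were above 0 and 18 below (median -0.16). A list of 13 genes held coregulators of PPARs and the nuclear receptor genes *Hnf4a* and *Hnf4g*. All 13 were tested and all 13 had a log2 fold change above 0, by 0.023 to 0.30 (median 0.085), where 51.4% of all genes tested were above 0. With 1 mouse left out the median was between 0.060 and 0.16, and 10 of the 13 were above 0 without DSS-1, 11 without ceAF-1 or ceAF-3 and 12 without DSS-4 or ceAF-4. With edgeR 0 of the 13 had an unadjusted p under 0.05, against 6.93% of all genes, and with DESeq2 0, against 7.67%. *Hnf4a*, a nuclear receptor of gut and liver epithelium (189 FPKM), ranged over 773 to 1099 CPM, *Ncor1*, a corepressor (11.3), over 124 to 168 CPM, and *Hnf4g*, the relative of *Hnf4a* (11.3), over 30.8 to 70.05 CPM.

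Of 12 further PPAR targets 10 were tested, 6 with a log2 fold change above 0 and 4 below (median 0.066, and -0.28 without ceAF-1), and 0 of the 10 had an unadjusted p under 0.05 with edgeR, against 6.93% of all genes, and 1 with DESeq2, against 7.67%. That 1 was *Hilpda*, a lipid droplet protein at 3.299 to 19.01 CPM, lower in the ceAF group. The lowest log2 fold change of any gene in this list was -0.89 over all mice and -0.37 without DSS-1. *Txnip*, a regulator of glucose uptake (190.4 FPKM), *Ucp2*, a mitochondrial carrier (66.2), and *Klf10*, a transcription factor (17.1), ranged over 449.5 to 885 CPM, 351 to 618 CPM and 48.8 to 97.2 CPM. *Pdk4*, which spares glucose when fat is burned, and *Vnn1*, a pantetheinase, were named after their values were seen. *Pdk4* measured 8.92, 13.7, 15.6, 16.3 and 2.101 CPM in DSS-1 to DSS-5 and 44.6, 5.34, 11.9, 6.503 and 4.89 CPM in ceAF-1 to ceAF-5. *Vnn1* measured 1.91, 13.2, 12.5, 10.4 and 0.9603 CPM in DSS-1 to DSS-5 and 27.01, 2.28, 7.84, 4.83 and 1.76 CPM in ceAF-1 to ceAF-5. In both, ceAF-1 was highest and DSS-5 lowest, and the same 5 mice as for *Fabp2* were on top. Of 13 further adipocyte genes 9 were tested, 6 above 0 and 3 below (median 0.061, and -0.23 without ceAF-1), 0 with an unadjusted p under 0.05 with edgeR or DESeq2. The most abundant by FPKM were *Pnpla2*, a triglyceride lipase (45.1 FPKM, 106 to 201 CPM), *Dgat2*, which makes triglycerides (41.1, 72.1 to 201 CPM), and *Cidec*, a droplet protein (7.23, 5.16 to 28.1 CPM).

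Markers of the other cell types of colon are given for their levels. Goblet markers (8 of 8 tested, 1 lower at an unadjusted edgeR p under 0.05, *Zg16* the most abundant by FPKM) summed to 16953, 13057, 12218, 17811 and 11803 CPM in DSS-1 to DSS-5 and 5424, 11661, 12716, 16431 and 11189 CPM in ceAF-1 to ceAF-5. Smooth muscle markers (8 of 8 tested, 0 lower, led by *Actg2*) summed to 2481, 2222, 1592, 1346 and 2834 CPM in DSS-1 to DSS-5 and 1271, 3013, 1221, 1491 and 2391 CPM in ceAF-1 to ceAF-5. Fibroblast markers (8 of 8 tested, 0 lower, led by *Col3a1*) summed to 1166, 573, 560.5, 532 and 561 CPM in DSS-1 to DSS-5 and 186, 722, 682, 887 and 493 CPM in ceAF-1 to ceAF-5. ceAF-1, the highest mouse for 10 of the 13 oxidation genes, was the lowest for goblet, fibroblast, endothelial, B cell and neutrophil markers and the lowest but ceAF-3 for smooth muscle. With DESeq2, 2 goblet, 0 smooth muscle and 1 fibroblast markers were lower at an unadjusted p under 0.05. T cell markers (8 of 8 tested, 7 lower with either tool, led by *Trac*) summed to 90.8, 93.2, 91.5, 98.6 and 34.7 CPM in DSS-1 to DSS-5 and 31.3, 50.7, 41.2, 21.9 and 27.4 CPM in ceAF-1 to ceAF-5. At an adjusted p under 0.05 edgeR called 0 of these 8 and DESeq2 2, and of all genes tested 3.67% were lower at an unadjusted edgeR p under 0.05. Macrophage markers (8 of 8 tested, 2 lower with either tool, led by *C1qa*) summed to 147 to 241 CPM and endothelial markers (8 of 8 tested, 1 lower with either tool, led by *Pecam1*) to 128, 69.5, 71.2, 85.8 and 65.8 CPM in DSS-1 to DSS-5 and 33.04, 57.3, 65.8, 120.5 and 54.4 CPM in ceAF-1 to ceAF-5. B cell markers (8 of 8 tested, 0 lower with either tool, led by *Cd79a*) summed to 236, 41.1, 30.95, 35.7 and 39.6 CPM in DSS-1 to DSS-5 and 8.47, 42.1, 78.4, 12.5 and 116 CPM in ceAF-1 to ceAF-5, and skeletal muscle markers (4 of 8 tested, 0 lower with either tool, led by *Acta1* with *Myh4* at 0 in every mouse) to 8.34 to 20.99 CPM. The part of these cell types in the values of the PPAR genes was not tested.

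Promoter sequences were looked at because PPAR and RXR bind DNA as a pair, on a short sequence repeated after a single spacer base. RefSeq promoter windows of GRCm38.p6 run from 250 bases before to 50 bases after the start of a gene. PPAR genes that are not reported here were left out of this search, and 64 of the others had 85 windows. The motif AGGTCANAGGTCA was in 0 of these 85 windows on either strand, and in 13 of all 32851 windows (0.0396%). With 1 mismatch it was in 1 window, that of *Fabp1*, or 1.18%, against 0.554% of all windows. With 2 mismatches, a setting chosen after seeing these results, it was in 9 windows (10.6%), against 3.86% of all windows. These belonged to *Acox2*, *Apoa2*, *Aqp7*, *Cd36*, *Fabp1*, *Mmp1b*, *Plin2* and *Rxra*, of which *Acox2*, *Cd36*, *Plin2* and *Rxra* were tested. A match is a description of these letters, and a window without one shows only that these letters are not in it.

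The windows of *Fabp1*, *Fabp2* and *Plin2* are shown 5′ to 3′ on the strand of the gene. The stretch that matches the motif on the opposite strand is in capitals. *Fabp1* has the closest match of the windows searched but was hardly detected. *Fabp2* has none but was the most abundant by FPKM of the PPAR genes reported here, and *Plin2* was among the least variable genes. The windows are credited to RefSeq. The *Fabp1* window is chr6:71199629-71199928 on the plus strand, that of *Fabp2* chr3:122894822-122895121 on the plus strand and that of *Plin2* chr4:86670010-86670309 on the minus strand, all in GRCm38.p6.
Fabp1: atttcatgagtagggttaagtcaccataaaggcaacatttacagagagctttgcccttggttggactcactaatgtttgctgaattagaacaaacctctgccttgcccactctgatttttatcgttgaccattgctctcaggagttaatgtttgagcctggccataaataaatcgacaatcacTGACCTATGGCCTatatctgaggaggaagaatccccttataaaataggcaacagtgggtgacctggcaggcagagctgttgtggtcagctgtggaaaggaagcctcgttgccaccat
Fabp2: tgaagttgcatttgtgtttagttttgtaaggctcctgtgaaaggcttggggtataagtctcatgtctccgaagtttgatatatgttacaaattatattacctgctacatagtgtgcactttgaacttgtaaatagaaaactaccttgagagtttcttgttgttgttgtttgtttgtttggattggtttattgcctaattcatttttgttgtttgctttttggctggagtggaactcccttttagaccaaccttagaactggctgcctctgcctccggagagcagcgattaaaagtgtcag
Plin2: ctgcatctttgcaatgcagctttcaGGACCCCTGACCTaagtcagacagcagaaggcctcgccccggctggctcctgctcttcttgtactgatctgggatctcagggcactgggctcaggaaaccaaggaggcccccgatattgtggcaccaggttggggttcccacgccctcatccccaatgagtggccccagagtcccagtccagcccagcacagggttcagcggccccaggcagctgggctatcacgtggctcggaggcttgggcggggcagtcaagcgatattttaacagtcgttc
The capitals hold 1 mismatch in *Fabp1* and 2 in *Plin2*. *Fabp1* summed to 16 counts over all 10 mice, while *Fabp2* had between 264 and 10307.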

How the data were processed

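RNA of snap-frozen colon was sequenced from 5 DSS and 5 ceAF mice as poly(A) libraries. By the submitters' processing notes, reads were trimmed with cutadapt 1.9.1 and aligned with HISAT2 2.2.1. The program that counted reads and the genome build are not given in the sources used here. The deposited table holds the authors' integer read counts for 56691 genes, with gene positions and pathways. It also holds FPKM as the authors computed it, which equalled count over exon length and total count within 1% or 0.01 FPKM in 100% of values.

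Genes were kept by edgeR's filterByExpr (minimum count 10, 5 mice per group) and tested in R 4.3.3 with edgeR 4.0.16 (limma 3.58.1, TMM scaling, quasi-likelihood test counting both directions, Benjamini-Hochberg adjustment over all 16545 genes kept, threshold 0.05). Log2 CPM used a prior count of 1. The SE is the log2 fold change over the square root of edgeR's F statistic, and 95% intervals use the test's degrees of freedom. The procedure was tested on simulated data. Permutation tests and plots used Python 3.11.15 and matplotlib 3.10.9. Gene types come from GENCODE M21 and promoters from RefSeq (GRCm38.p6).

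The 110 genes and the lists were chosen with earlier results of these data known. Genes are named by rule: *Pparg*, *Cpt1a* and *Angptl4*, in each of 10 role lists the 3 tested genes of highest mean FPKM and the 1 of largest absolute fold change, any at an unadjusted p under 0.05, the 3 highest of each list outside the pathway, the highest of each cell or position list, and up to 15 genes too low to test. Some genes that the rule names are not reported here. Other genes named were chosen after their values were seen. Alternatives were upper quartile scaling, DESeq2 1.42.0, no filter on low counts, the replicate number as a block, and leaving out each mouse in turn. A search for the promoter motif with 2 mismatches was added after seeing the data.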

Additional observations from a re-analysis of the deposited data

Results flagged for a closer look

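In 10 of 76 groups of 5 mice, formed by a gene or list and a treatment, 1 mouse lay far from the other 4, by more than 0.71 of the group's whole range. Chance alone does so in about 5% of groups, and genes are not independent. Values are log2 CPM.

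DSS-5 was apart in 6 of the 10. It was lowest in *Pparg* (5.33, others 6.57 to 6.97), in *Acox2* (-0.89, others 2.02 to 2.78) and in *Me1* (3.47, others 4.61 to 4.97). It was highest in *Gk* (7.71, others 6.07 to 6.32) and in *Pdpk1* (6.72, others 6.15 to 6.30). In the mean of the uptake and binding genes, each as log2 CPM minus its mean over the 10 mice, DSS-5 was lowest at -1.005 (others 0.28 to 0.57).

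ceAF-1 was apart in 3. It was highest in *Scp2* (8.35, others 7.41 to 7.66) and in the mean of the uptake and binding genes (0.77, others -0.52 to -0.16), and lowest in *Pltp* (1.49, others 2.40 to 2.76). ceAF-4 was lowest in the mean of the lipoprotein, cholesterol and bile acid genes (-0.39, others -0.042 to 0.028).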

How the results depend on the processing

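The 58 genes gave 0 calls at an adjusted p under 0.05 in every setting tried. Over all genes tested, edgeR called 0 with upper quartile scaling, 0 without a filter on low counts and 0 with the replicate number as a block (1111, 1733 and 694 at an unadjusted p under 0.05), DESeq2 called 30, and leaving out 1 mouse gave 0 to 3, the 3 without DSS-5. The number of PPAR genes lower in the ceAF group at an unadjusted p under 0.05, which was 1, was 0 with upper quartile scaling and 0 with the replicate block, and 3 with DESeq2 and 3 without a filter, each time *Acsl4*, *Fabp5* and *Olr1*. Leaving out 1 mouse gave 0 to 3 lower genes and 0 to 2 higher ones, while over all genes these fits gave 712 (4.26%, without DSS-1) to 1872 (11.2%, without ceAF-1) at an unadjusted p under 0.05, the higher PPAR genes being *Acsl3* and *Slc27a2* without DSS-3 and *Acsbg3* without DSS-1, and the lower ones *Lpl*, *Scp2-ps2* and *Slc27a4* without ceAF-1, *Cd36*, *Fabp5* and *Olr1* without DSS-5 and otherwise *Acsl4*, *Fabp5* or *Olr1*. Among the 30 genes named by rule, the replicate block changed the sign of *Ppara* (-0.024), *Scp2* (-0.024), *Gk* (-0.0014) and *Pck1* (0.011). It also turned *Lpl* (-0.37), *Acsbg1* (-0.60) and *Sorbs2* (-0.0044). Of the list medians given above, it turned those of *Hox* genes (-0.079), ketone body genes (-0.010), further PPAR targets (-0.045) and further adipocyte genes (-0.050). The sources used here do not say whether the numbers pair the mice, and they were not taken as pairs. Across genes, r between mice of the same number was -0.249, -0.136, -0.00428, -0.159 and 0.286, and genes are not independent replicates. With ceAF mice of other numbers, r was 0.043 to 0.155 for DSS-1, -0.177 to 0.241 for DSS-2 and -0.244 to 0.388 for DSS-3. It was -0.153 to 0.243 for DSS-4 and -0.283 to 0.154 for DSS-5, where the same number gave the higher r. Without the filter the median log2 fold change was -0.28 for lipoprotein, cholesterol and bile acid genes and -0.022 for adipocyte genes, whose median with the filter is not reported here, with more genes tested, the activation median turned to 0.021, and *Cyp27a1* was 0.0013. With 1 mouse left out, the median of all PPAR genes tested was above 0 without DSS-2, DSS-3, DSS-5, ceAF-2, ceAF-4 or ceAF-5 and below 0 otherwise, and list medians lay between these values: receptors -0.077 and 0.22, lipoprotein, cholesterol and bile acid -0.30 and 0.019, uptake and binding -0.62 and 0.073, oxidation -0.023 and 0.20, activation -0.042 and 0.19, glycerol, gluconeogenesis and other -0.057 and 0.097, desaturation and lipogenesis -0.32 and 0.13. Of the 30 genes named by rule and reported here, 12 never changed sign with 1 mouse left out, but their size moved: *Cpt1a* 0.17 to 0.39, *Rxra* -0.37 to -0.028, *Pltp* -0.54 to -0.20, *Dbi* -0.25 to -0.010, *Olr1* -3.24 to -0.27, *Acox2* 0.19 to 0.96, *Pck2* 0.060 to 0.23, *Acsl3* 0.13 to 0.50, *Acsl4* -0.48 to -0.29, *Acsbg3* 0.38 to 0.74, *Fabp4* -0.47 to -0.24 and *Me1* 0.14 to 0.49. The others ranged, with 1 mouse left out, over these log2 fold changes: *Pparg* -0.077 to 0.27, *Angptl4* -0.62 to 0.16, *Ppard* -0.037 to 0.25, *Ppara* -0.47 to 0.77, *Cyp27a1* -0.19 to 0.17, *Nr1h3* -0.19 to 0.039, *Fabp2* -1.05 to 0.15, *Fabp6* -1.62 to 0.16, *Acadl* -0.0039 to 0.17, *Scp2* -0.19 to 0.090, *Gk* -0.099 to 0.51, *Pdpk1* -0.0066 to 0.17, *Acsl5* -0.063 to 0.048, *Pck1* -0.16 to 0.10, *Scd2* -0.42 to 0.097, *Fads2* -0.34 to 0.21, *Scd1* -0.23 to 0.16 and *Plin2* -0.14 to 0.033. The cause of these changes was not tested. Depth limits genes of few counts, such as *Acaa1b* and *Olr1*.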
